A study of Rattus norvegicus with 18 samples.

Results

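The genes described here are 10 ligands and receptors of bone morphogenetic protein (BMP) signalling: Bmp2, Bmp4, Bmp6, Bmp7, Bmpr1a, Bmpr1b, Bmpr2, Acvr1, Acvr2a and Acvrl1. They were followed in rat spinal cord material on 18 single-channel Affymetrix arrays. A probe set was taken when the platform annotation gave it 1 symbol and that symbol was one of the 10. This found 16 of the 31042 probe sets tested, and 9 of the 10 genes among the 14217 named genes of the array. No probe set carried the symbol Bmpr1b, which was not analysed here. Bmp6 had 4 probe sets and Acvr1 had 3. Bmp2 and Bmpr2 had 2 each, and Bmp4, Bmp7, Bmpr1a, Acvr2a and Acvrl1 had 1 each. The 6 BMP arrays came from exposure to a BMP at 10 ng/mL for 4 days. The 6 CNTF arrays came from exposure for 4 days to ciliary neurotrophic factor, a cytokine that signals through gp130, also at 10 ng/mL. The 6 control arrays carry the entry "control" with no time. The same entry "14 NT" opens the description of all 3 groups and was not interpreted. The labels give no strain, age, sex or cell type, and do not say which BMP was added. Whether the controls were sampled at the same time cannot be told from the labels, and this limit goes with every difference against control. The titles number the arrays 1 to 6 within each group.

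BMPs are secreted dimers that bind a complex of type I and type II receptor kinases at the cell surface. The type II receptor (Bmpr2 or Acvr2a) phosphorylates the type I receptor (Bmpr1a, Bmpr1b, Acvr1 or Acvrl1), which then phosphorylates receptor SMAD proteins that act in the nucleus. In the developing spinal cord, BMPs from the roof plate pattern the dorsal side, and in cultured neural precursors BMPs are known to favour astrocytes over oligodendrocytes.

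Levels are log2(intensity + 116.655), in which the added constant is the 20th percentile of the deposited table and the median of the table is 9.75. An intensity of 0 would read 6.87 on this scale. Fold values are ratios on the same scale, and they understate the change of dim probe sets. Array medians lay between 666.5 and 817.2 intensity units. Of the marker lists, all 7 measured endothelial markers, all 8 microglia and macrophage markers and all 4 measured Schwann cell markers were below the table median in each group. Astrocyte, neuron, oligodendrocyte precursor and oligodendrocyte markers were mostly above it. Of the 8 fibroblast and mural markers, 4 were below it in each group (Dcn, Lum, Pdgfrb and Rgs5). With BMP, 7 of 7 measured precursor markers and 4 of 7 oligodendrocyte markers fell, with medians of -1.40 and -1.90 against 0.01 over all probe sets. Of the neuron markers 2 of 9 rose, of the astrocyte markers 1 of 8, of the endothelial markers 1 of 7, and of the fibroblast and mural markers 1 of 8. With the title number as a replicate block these counts were 5 of 9, 2 of 8, 1 of 7 and 4 of 8, and 5 of 7 oligodendrocyte markers fell. At a limma adjusted p under 0.05, 3.44% of all probe sets rose and 2.57% fell with BMP, or 9.1% and 7.58% with the block. For CNTF these shares were 1.58% and 0.738%, or 4.19% and 3.38% with the block. With CNTF, the astrocyte marker Gfap rose (3.96 ± 0.78 log2, limma adjusted p = 0.00708), as did the dim Schwann cell marker Pmp2 (1.29 ± 0.30, 0.0266). With the block Aqp4 rose too (1.91, 0.000311) and Aldh1l1 fell (-1.40, 0.0301), both of them astrocyte markers, and 3 neuron markers, 2 oligodendrocyte markers and 1 fibroblast marker rose while 1 neuron and 1 precursor marker fell. In these bulk samples, fewer cells of a type and less RNA per cell cannot be told apart. No label states that the 6 arrays of a group stand for separate cultures or animals. The p-values therefore describe array-to-array spread, and how much of it is technical cannot be told from the labels. Without the block that spread includes the differences between title numbers. Title number took a median of 53.7% of the sum of squares over the 15502 probe sets at or above the table median.

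With BMP, Acvr1 rose on all 3 of its probe sets, and it was the 1 gene of the 9 called on its brightest probe set. Of the 16 probe sets 3 were called in BMP against control, all higher, where 6.01% of all probe sets were called (limma, Benjamini-Hochberg adjusted p under 0.05). At an unadjusted p under 0.05 there were 7. The share of all probe sets at that threshold was not computed, for this or any other comparison. In CNTF against control 0 of 16 were called by limma, and 0 at an unadjusted p under 0.05, where 2.32% of all probe sets were called. In BMP against CNTF 2 of 16 were called, both of them Acvr1 and both higher with BMP, where 6.23% of all probe sets were called. When the title number was added to the model as a replicate block, the calls came to 6, 1 and 4 of 16 in these 3 comparisons. The shares of all probe sets called then were 16.7%, 7.57% and 15.1%. The calls gained with the block were those of Bmp4 and 2 Bmp6 probe sets against control, of Bmp7 in CNTF against control, and of Bmp4 and the brightest Acvr1 probe set in BMP against CNTF. The median size of the difference in BMP against control was 0.37 over the 16 probe sets and 0.17 over all probe sets.

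**Figure D1:**
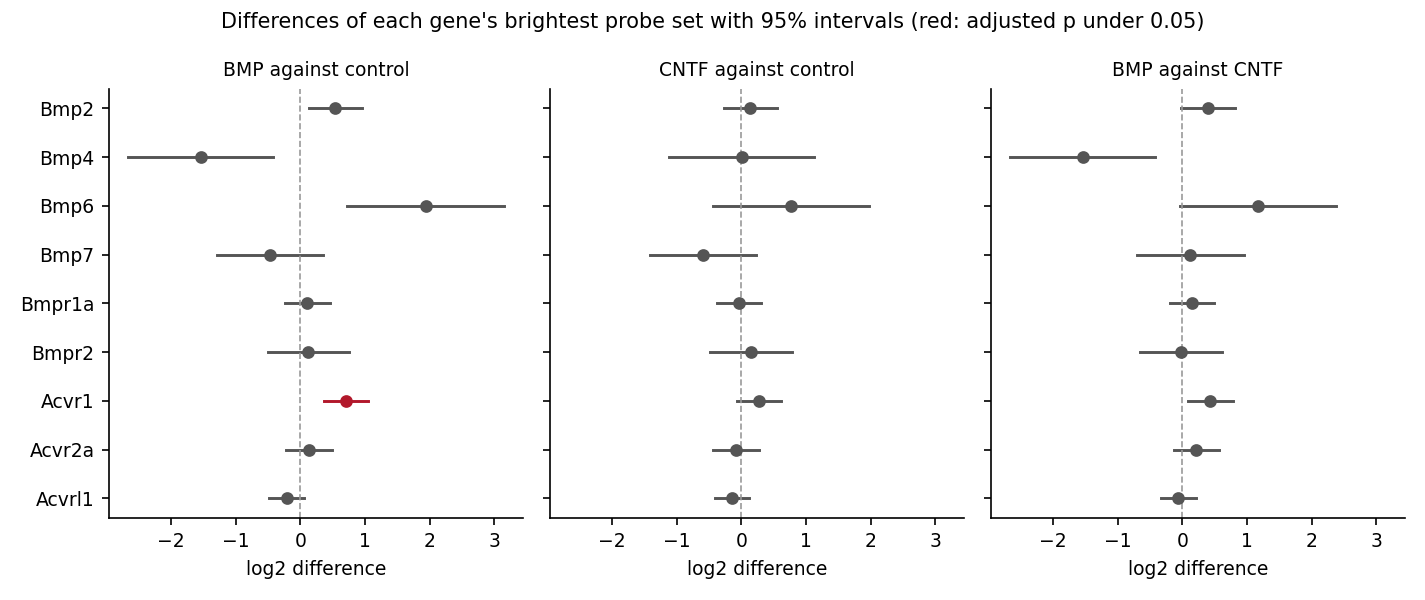
Log2 differences of the brightest probe set of each of the 9 genes in the 3 comparisons (x axis), with 95% intervals from the moderated spread of limma without the replicate block, 6 arrays a group. Acvr1 in BMP against control (0.70) is the 1 red point; the widest intervals are those of Bmp4 and Bmp6.

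Among the ligands, Bmp4 was the lowest relative to control with BMP. Bmp4 ranged from 9.13 to 11.68 on the BMP arrays (median 10.25), from 10.52 to 13.40 on the CNTF arrays (median 12.14) and from 9.81 to 13.13 on the control arrays (median 12.13). The groups overlapped. In linear units the BMP arrays averaged 1578 and the control arrays 5061. The BMP difference was -1.53 ± 0.54 log2 (SE), 2.90-fold lower, and was not called (limma adjusted p = 0.103), with a 95% interval of -2.66 to -0.41. With the replicate block it was called (adjusted p = 0.00944). By title number 1 to 6 the BMP minus control difference of Bmp4 was 0.28, -0.32, -3.06, -3.23, -1.49 and -1.39. The difference lay in numbers 3 to 6, while numbers 1 and 2 differed little. Control array 1, at 9.81, was the lowest control, the others lying at 11.77 or above. Without it, and with BMP array 1 (10.09) kept, the Bmp4 difference was -1.97 and was called (adjusted p = 0.0177). Number 1 was low as a whole: its mean over the 3 groups was 10.14, where those of the other numbers were 11.24 to 12.72.

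Against CNTF, Bmp4 was lower with BMP under all 6 numbers, with differences of -0.18 to -3.10 log2 (mean -1.54 ± 0.54, adjusted p = 0.104, and 0.00935 with the block). It was called without CNTF array 1, the lowest CNTF array, while BMP array 1 was kept (adjusted p = 0.0453). CNTF against control gave 0.01 ± 0.54 for Bmp4 (adjusted p = 0.998), with an interval of -1.11 to 1.13. The summed intensity of the 7 precursor markers, which moved with the same groups, was 25102 to 113329 on BMP arrays, 105961 to 141318 on CNTF arrays and 122725 to 172853 on control arrays. No marker value was 0. Their part in the Bmp4 difference was not tested.

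Bmp6, a ligand of the same subfamily as Bmp7, read higher with BMP on its brighter probe sets, and passed the test only in some of the settings. On its brightest probe set, 1388920_at, Bmp6 ranged from 8.49 to 11.74 on the BMP arrays (median 9.61), from 6.95 to 10.47 on the CNTF arrays (median 8.17) and from 7.06 to 8.48 on the control arrays (median 8.01). All 6 BMP arrays were above all 6 controls, the nearest values being 8.49 and 8.48. The share of all probe sets without such overlap was not computed. The difference was 1.94 ± 0.58 log2, 3.83-fold, and just missed the call (limma adjusted p = 0.0525), with a 95% interval of 0.73 to 3.15. Its size depended on the added constant: it was 2.47 with the constant divided by 4 (adjusted p = 0.0614) and 1.18 with it multiplied by 4 (0.0666). It was called with the replicate block (adjusted p = 0.00678), without BMP array 4 (0.0275) and without BMP array 6 (0.039).

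The size of the Bmp6 difference varied with the title number. On 1388920_at it was 2.12, 3.88, 2.87, 1.42, 0.97 and 0.38 for numbers 1 to 6. The probe set 1388201_at gave 1.72, 3.79, 3.54, 0.03, 0.05 and 0.71, and its mean difference was 1.64 ± 0.60 (adjusted p = 0.125, 0.0283 with the block and 0.0261 without BMP array 4), or 2.14 and 0.98 with the smaller and the larger constant. On both probe sets the BMP arrays 1 to 3 lay at 9.75 to 11.74 and the BMP arrays 4 to 6 at 7.15 to 9.06. All 6 control arrays and 3 of the 6 BMP arrays were below the table median on each of them. The 2 dimmest Bmp6 probe sets, 1378427_at and 1378827_at, stayed below the table median on every array. They differed by -0.08 ± 0.31 and 0.02 ± 0.14 (adjusted p = 0.942 and 0.968).

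CNTF arrays 2 and 3 were also high for Bmp6, at 10.47 and 10.25 on 1388920_at, where the other 4 CNTF arrays lay at 6.95 to 8.21. The CNTF minus control difference was 0.77 ± 0.58 (adjusted p = 0.731, interval -0.44 to 1.98). BMP arrays were above CNTF arrays for Bmp6 under all 6 numbers on both bright probe sets. The mean difference of 1.17 ± 0.58 on 1388920_at was nevertheless not called (adjusted p = 0.309, and 0.0929 with the block).

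**Figure D2:**
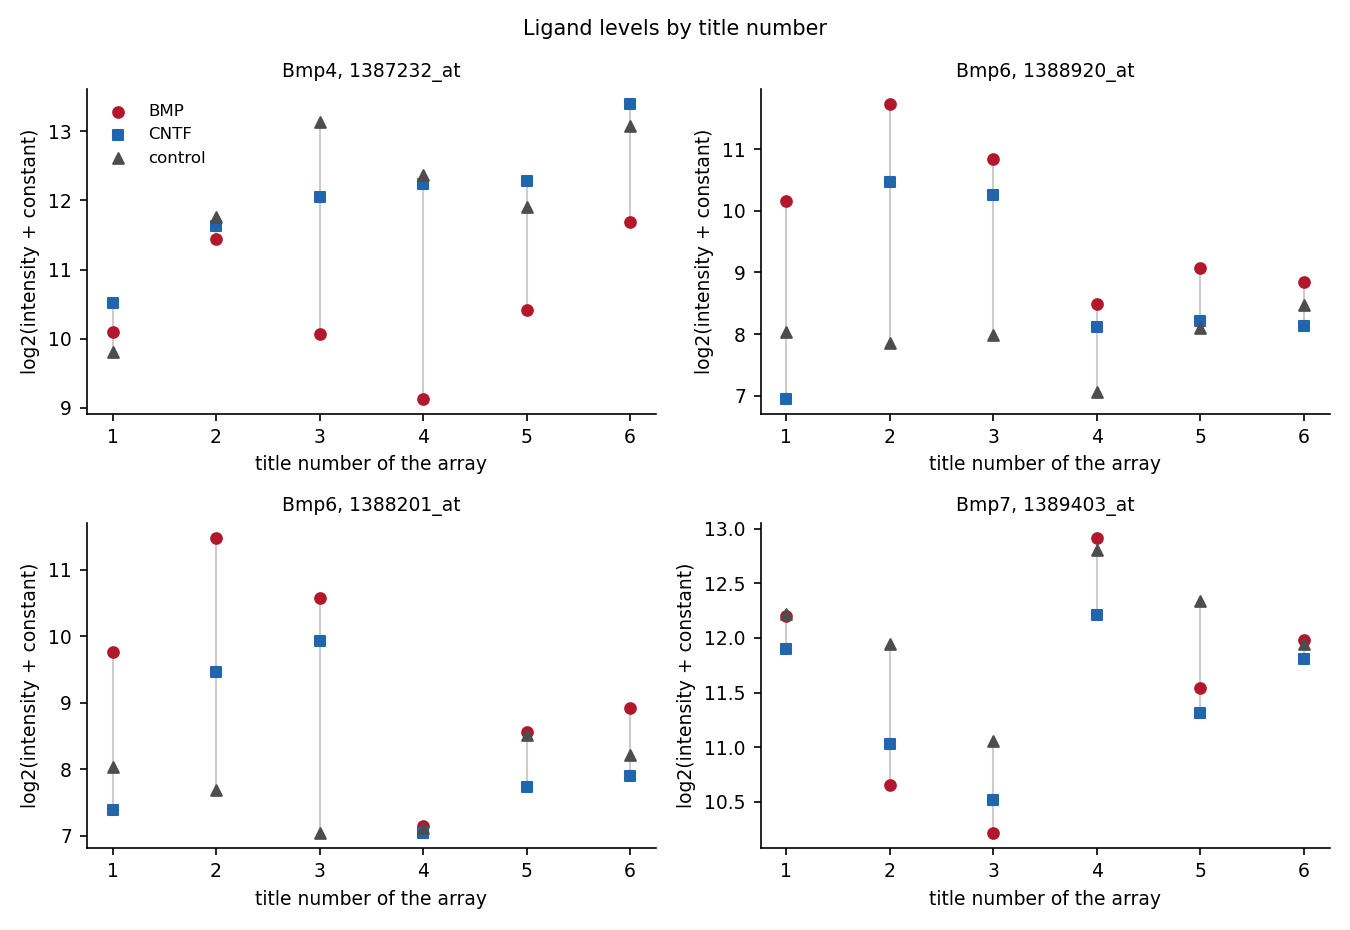
Levels of Bmp4, Bmp6 (2 probe sets) and Bmp7 on each array, as log2(intensity + constant), against the title number. Grey lines join the arrays of 1 number. BMP arrays lie under the other groups for Bmp4 in numbers 2 to 6, by little in number 2, and above the controls for Bmp6 in all 6 numbers, most in numbers 1 to 3.

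Promoter sequences are shown for Bmp4 and Bmp6, the ligands with the largest differences, since these went in opposite directions with BMP. RefSeq promoters on GRCr8 were matched for 5 of the 10 genes (Bmp4, Bmp6, Bmpr1a, Bmpr2 and Acvr2a), and the 250 bases before the start that this table uses were searched on both strands. For Bmp4, Bmp6, Bmpr2 and Acvr2a that start lies inside the annotated span of the gene, so the windows stand before an internal transcript start and not at the outermost 5′ end. Capitals mark the SMAD box GTCT or its reverse complement. The Bmp4 window is chr15:22101934-22102183 and the Bmp6 window is chr17:26675262-26675511, both on the minus strand and printed 5′ to 3′ along the gene.
Bmp4: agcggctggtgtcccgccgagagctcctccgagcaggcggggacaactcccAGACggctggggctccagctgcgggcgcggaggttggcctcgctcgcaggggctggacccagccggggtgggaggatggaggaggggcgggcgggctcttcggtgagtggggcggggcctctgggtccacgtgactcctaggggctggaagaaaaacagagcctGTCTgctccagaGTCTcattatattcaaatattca
Bmp6: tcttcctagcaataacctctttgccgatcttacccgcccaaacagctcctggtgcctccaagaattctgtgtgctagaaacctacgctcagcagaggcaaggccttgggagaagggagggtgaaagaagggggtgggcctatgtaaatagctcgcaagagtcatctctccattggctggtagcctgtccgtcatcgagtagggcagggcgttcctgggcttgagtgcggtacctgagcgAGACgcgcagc
The Bmp4 window held 3 SMAD boxes and the Bmp6 window 1. That motif of 4 letters occurs in 84% of the 33469 RefSeq promoter windows of this length. The GC-rich SMAD motif GGCGCC (8.69% of windows), the SMAD palindrome GTCTAGAC, which itself contains the box (0.173%), and the STAT motif TTCNNNGAA (7.67%) were in neither window, nor in those of Bmpr1a, Bmpr2 and Acvr2a. The GC content was 66.4% for Bmp4 and 56.4% for Bmp6, against a median of 51.2% over all windows.

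Bmp7, a ligand known to signal through Acvr1, ranged from 10.21 to 12.92 on the BMP arrays (median 11.76), from 10.52 to 12.21 on the CNTF arrays (median 11.56) and from 11.06 to 12.81 on the control arrays (median 12.08). The groups overlapped widely, and the numbers differed more than the groups did. The CNTF array was below the control array under all 6 numbers, by 0.14 to 1.02. The mean CNTF difference was -0.59 ± 0.39 (limma adjusted p = 0.67), and it was called with the replicate block (-0.59 ± 0.16, adjusted p = 0.0352). With BMP, Bmp7 differed by -0.46 ± 0.39 (adjusted p = 0.607, 0.0602 with the block), lower under 4 of 6 numbers. Number 2 gave -1.29 and number 4 gave 0.11. BMP against CNTF gave 0.12 ± 0.39 (adjusted p = 0.932).

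Bmp2, the closest relative of Bmp4, was dim. On 1398270_at it averaged 9.42 ± 0.34 with BMP, 9.02 ± 0.38 with CNTF and 8.88 ± 0.28 in controls (SD, n = 6 each). BMP array 2, at 9.98, was the 1 array above the table median. The BMP difference was 0.54 ± 0.20 (limma adjusted p = 0.121, 0.0683 with the block), with values of 0.72 to 1.20 under numbers 1 to 4 and of -0.04 and -0.17 under numbers 5 and 6. It was 0.64 with the constant divided by 4 and 0.34 with it multiplied by 4, not called in either. The second probe set, 1368945_at, lay at 7.27 to 8.53 on all arrays and gave 0.27 ± 0.22 (adjusted p = 0.592). CNTF against control gave 0.14 ± 0.20 and 0.23 ± 0.22 on these probe sets (adjusted p = 0.908 and 0.827).

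Acvr1 (ALK2), a type I receptor with which BMP6 and BMP7 signal, was the receptor that rose with BMP. On its brightest probe set, 1379217_at, Acvr1 ranged from 11.57 to 12.31 on the BMP arrays (median 11.74), from 11.16 to 11.91 on the CNTF arrays (median 11.38) and from 10.93 to 11.65 on the control arrays (median 11.04). The BMP and control ranges overlapped through control array 2 (11.65), which was just above BMP arrays 4, 5 and 6. The difference was 0.70 ± 0.16 log2, 1.63-fold (limma adjusted p = 0.0131). By number 1 to 6 it was 1.26, 0.62, 0.50, 0.57, 0.64 and 0.64. On this probe set numbers 2 to 6 lay close together and number 1 stood above them.

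The other Acvr1 probe sets also rose, with a wider spread over the numbers. On 1385069_at Acvr1 ranged from 11.42 to 12.44 with BMP (median 11.89) and from 10.89 to 11.27 in controls (median 11.11), with no overlap (0.81 ± 0.17, 1.75-fold, limma adjusted p = 0.00655). By number it was 1.44, 1.04, 0.90, 0.67, 0.43 and 0.37. On 1398277_at it ranged from 10.68 to 11.77 with BMP (median 11.32) and from 10.10 to 10.71 in controls (median 10.25). That difference was 0.97 ± 0.19, 1.95-fold (adjusted p = 0.00441), and the lowest BMP array was just under the highest control. By number it was 1.61, 1.16, 0.68, 0.62, 0.57 and 1.15, so that number 1 was the highest on each of the 3 probe sets. All 3 probe sets were higher with BMP under 6 of 6 numbers, and all 3 were called in all 20 settings tried, which included leaving out each BMP or control array in turn. The probe sets share 1 RNA per array and are not replicates of each other. The share of all probe sets without overlap, or with 1 direction under 6 of 6 numbers, was not computed. The summed intensity of the 8 fibroblast and mural markers was 8336 to 42423 on BMP arrays, 2169 to 13514 on CNTF arrays and 2901 to 11223 on control arrays. This sum rests mostly on Col1a1, Col1a2, Col3a1 and Acta2. The dim markers Dcn, Lum, Pdgfrb and Rgs5 were not called with BMP, with or without the block, and Rgs5 read lower (-0.24). The precursor markers moved as given for Bmp4. The part of these markers in the Acvr1 and Bmp6 differences was not tested.

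**Figure D3:**
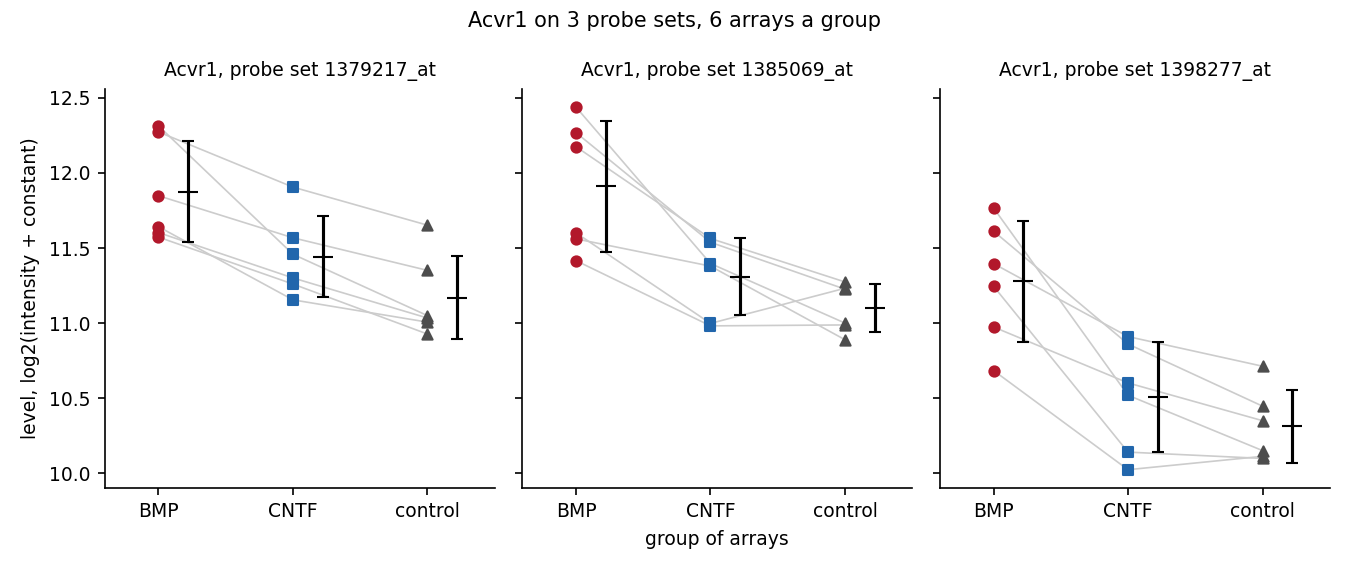
Acvr1 on its 3 probe sets, as log2(intensity + constant), for the 6 arrays of each group. Points are arrays, grey lines join arrays with the same title number, and bars give the mean ± SD; BMP arrays average 11.88, 11.91 and 11.28 on the 3 probe sets and controls 11.17, 11.10 and 10.31.

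CNTF arrays lay between the BMP and control arrays for Acvr1. Their differences from control were 0.27 ± 0.16, 0.21 ± 0.17 and 0.20 ± 0.19 on 1379217_at, 1385069_at and 1398277_at (limma adjusted p = 0.608, 0.762 and 0.823). On the first of these the CNTF array was the higher one under 6 of 6 numbers, by 0.15 to 0.41 (adjusted p = 0.0765 with the block). BMP exceeded CNTF by 0.43 ± 0.16, 0.60 ± 0.17 and 0.77 ± 0.19 (adjusted p = 0.142, 0.038 and 0.0179), under 6 of 6 numbers on each probe set. With the block the brightest probe set was called too (adjusted p = 0.00296). The call of 1398277_at was lost without CNTF array 6 (adjusted p = 0.0506). That of 1385069_at was lost without any 1 of BMP arrays 1, 2 and 3 or CNTF arrays 1, 4, 5 and 6, with adjusted p up to 0.0963.

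Over the 18 arrays, the named genes with the pattern most like that of Acvr1 were Pyurf, Cd2ap and Tmem42. Likeness was the root mean square difference between levels, each gene centred on its own mean. It was 0.21 log2 for each of the 3, where Acvr1 itself had an SD of 0.40 and the median over 8922 genes at or above the table median was 0.47. Pyurf rose with BMP (0.57, limma adjusted p = 0.00655), and Cd2ap and Tmem42 were not called (0.43 and 0.50, adjusted p = 0.138 and 0.0512).

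The type II receptor Bmpr2 differed far more between title numbers than between groups. On 1376843_at it ranged from 11.50 to 13.04 with BMP (median 12.05), from 11.48 to 13.16 with CNTF (median 12.10) and from 11.35 to 12.99 in controls (median 11.92). The mean of the 3 arrays of a number was 13.06, 12.32, 11.59, 11.44, 11.96 and 12.09 for numbers 1 to 6. Within a number the BMP array exceeded the control by 0.06 to 0.20 and the CNTF array exceeded it by 0.11 to 0.21, under 6 of 6 numbers each. Without the block the differences were 0.13 ± 0.30 and 0.15 ± 0.30 (limma adjusted p = 0.889 and 0.944). With the block they were 0.13 ± 0.05 and 0.15 ± 0.05, and neither was called (adjusted p = 0.0907 and 0.0719). The interval with the block was 0.02 to 0.23 for BMP and 0.05 to 0.25 for CNTF. The second Bmpr2 probe set, 1394667_at, was dim (7.01 to 8.35 over all arrays), and its differences of 0.20 ± 0.22 and 0.16 ± 0.22 were not called (adjusted p = 0.721 and 0.911).

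Title number took 98.2% of the sum of squares of Bmpr2 over the 18 arrays and group took 1.54%. For Acvr2a number took 79.1%, for Bmp7 77.9% and for Bmpr1a 65.4%. The median share of number was 53.7% over the 15502 probe sets at or above the table median, of which 7 reached the share of Bmpr2, itself included. On the 3 Acvr1 probe sets the order was the other way, with 53.5%, 60.1% and 64.0% for group and 38.7%, 24.7% and 25.0% for number. Group also took more than number on the brightest probe sets of Bmp2 (35.8% and 18.9%) and Bmp6 (37.9% and 34.9%). The median share of group over the 15502 probe sets was 16.7%. These shares were computed after earlier values had been seen and carry no test.

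**Figure D4:**
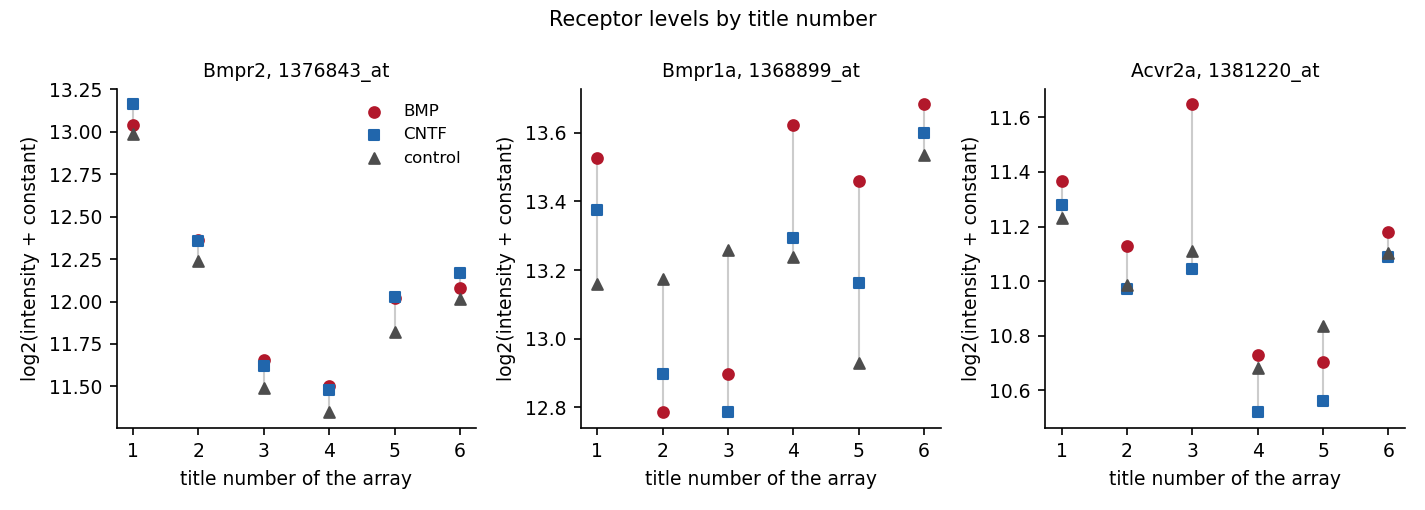
Levels of Bmpr2, Bmpr1a and Acvr2a on each array, as log2(intensity + constant), against the title number, with grey lines joining arrays of 1 number. The y axes cover different ranges; for Bmpr2 the 3 groups nearly coincide within each number while numbers span 11.44 to 13.06 in their means.

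**Figure D5:**
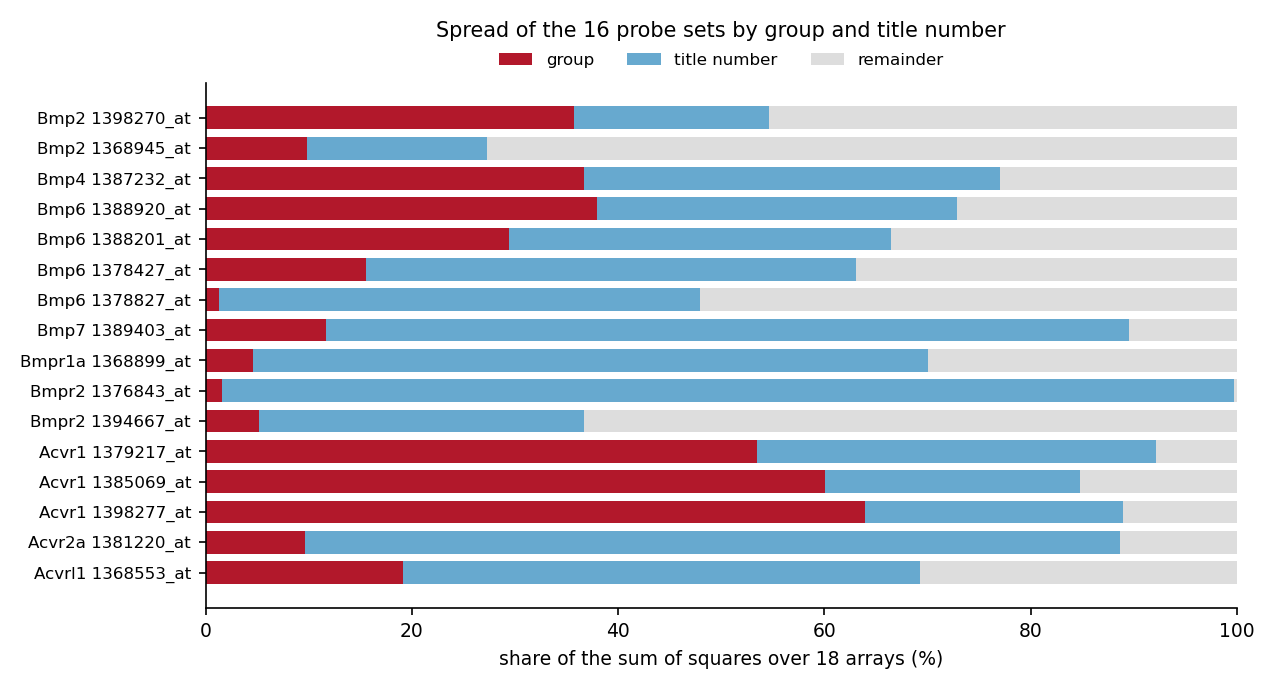
Share of the sum of squares over the 18 arrays taken by group, by title number and by the remainder, for each of the 16 probe sets. Group takes over 50% on the 3 Acvr1 probe sets, and title number takes 98.2% on the bright Bmpr2 probe set.

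Bmpr1a (ALK3), a type I receptor of BMP2 and BMP4, ranged from 12.79 to 13.68 with BMP, from 12.78 to 13.60 with CNTF and from 12.93 to 13.53 in controls. Its difference was 0.11 ± 0.16 with BMP (limma adjusted p = 0.797) and -0.03 ± 0.16 with CNTF (adjusted p = 0.981). The 95% intervals were -0.23 to 0.45 and -0.37 to 0.31. By number the BMP difference was 0.37, -0.39, -0.36, 0.38, 0.53 and 0.15, so that numbers 2 and 3 went against the rest. Acvr2a, a type II receptor shared with activins, ranged from 10.70 to 11.65 with BMP, from 10.52 to 11.28 with CNTF and from 10.68 to 11.23 in controls. It differed by 0.13 ± 0.17 with BMP and -0.08 ± 0.17 with CNTF (adjusted p = 0.756 and 0.946). BMP exceeded CNTF for Acvr2a under 6 of 6 numbers (0.22 ± 0.17, adjusted p = 0.601, 0.106 with the block).

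Acvrl1 (ALK1), a type I receptor best known in endothelial cells, was near the floor of the scale. Its levels were 6.94 to 7.10 with BMP, 6.93 to 7.36 with CNTF and 6.94 to 7.60 in controls, where an intensity of 0 reads 6.87. The mean intensities were 10.6, 17.1 and 32.7 units. Its differences, -0.21 ± 0.13 with BMP and -0.14 ± 0.13 with CNTF, were not called (limma adjusted p = 0.436 and 0.803), and the BMP difference ran from -0.50 with the smaller constant to -0.063 with the larger. All 7 measured endothelial markers were below the table median in each group, and their summed intensity was 417 to 1219 units on BMP arrays, 721 to 1075 on CNTF arrays and 573 to 926 on control arrays.

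Other genes of the pathway were read on 5 lists. In BMP against control 3.44% of all probe sets were called higher and 2.57% lower, or 9.1% and 7.58% with the block. Of 14 measured antagonists and modulators 7 rose and 0 fell in BMP against control, with and without the block, with a median difference of 0.55. By smallest adjusted p these were Nbl1, a BMP-binding antagonist (1.26 ± 0.19, limma adjusted p = 0.000997), Chrdl2, a chordin-like protein (1.49 ± 0.24, 0.00123), Bmp1, a protease that cleaves chordin (0.57 ± 0.12, 0.00664), and the follistatin-like protein Fstl1 (1.25 ± 0.27, 0.0075). Of 11 further receptors and co-receptors 1 rose and 1 fell. Bambi, a decoy receptor without a kinase, rose to 9.62 ± 0.69 with BMP, against 8.12 ± 0.70 in controls (SD, n = 6 each, limma adjusted p = 0.0139), and Acvr2b, the second activin type II receptor, fell (-0.32 ± 0.09, adjusted p = 0.0464). With the block 2 rose and 2 fell, the further ones being the co-receptor Rgmb (1.44, adjusted p = 0.0501 without and 1.3e-05 with the block) and the TGF-beta type I receptor Tgfbr1 (-0.22, 0.131 and 0.0242). The list median was 0.18. Of 16 further ligands Tgfb2 rose (0.49 ± 0.14, adjusted p = 0.0415), and the median was 0.22. With the block the activin subunit Inhba rose as well (0.68, adjusted p = 0.103 without and 0.00366 with it).

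Inside the cell, 0 of 13 SMADs and other mediators were called by limma with BMP (3 at an unadjusted p under 0.05; median 0.09). With the block Smad9 (1.15, adjusted p = 0.00171), Smad3 (0.43, 0.0108) and Smad2 (0.19, 0.036) rose, and the kinase Map3k7 fell (-0.19, 0.0303). Of 10 target transcription factors Atoh8 rose (0.84 ± 0.22, adjusted p = 0.0295), and the median was 0.23. With the block Id2 rose as well (0.37, adjusted p = 0.0777 without and 0.00279 with it). Id1 (-0.50, adjusted p = 0.406 without and 0.0612 with the block), Id3 (-0.21), Hey1 (-0.17) and Hey2 (-0.09) read lower with BMP. They were not called in either fit, and the other targets on the list read higher. Over all probe sets the median in BMP against control was 0.01. In CNTF against control 0 genes on any of these 5 lists were called by limma. At an unadjusted p under 0.05 there were 2 ligands, 2 receptors, 3 modulators, 3 mediators and 1 target, with no share over all probe sets to set beside them. With the block, Bmper, a secreted BMP-binding protein, was the 1 modulator that rose with CNTF (1.21, adjusted p = 0.00336). It rose as much with BMP without the block (1.20, adjusted p = 0.0404). With the block, Rgma, a BMP co-receptor (-0.33, adjusted p = 0.0218), the receptor SMADs Smad5 and Smad9 (-0.43 and -0.91, 0.0149 and 0.0156) and Hey2 (-0.72, 0.00363) fell with CNTF, and Smurf1, a ubiquitin ligase of SMADs, rose (0.34, 0.0393). The astrocyte and Schwann cell markers that moved with CNTF were Gfap, Aqp4, Aldh1l1 and Pmp2. With the block the oligodendrocyte markers Mag and Cldn11, the neuron markers Nefl, Nefm and Stmn2 and the fibroblast marker Lum rose. The neuron marker Map2 and the precursor marker Cspg4 fell. The part of all these markers in the calls with CNTF was not tested. The genes named for their blocked calls were chosen after their values were seen. In CNTF against control with the block, 4.19% of all probe sets were called higher and 3.38% lower. In BMP against CNTF 3 of 16 ligands, 2 of 11 receptors, 3 of 14 modulators and 2 of 13 mediators were higher with BMP. Of the receptors 1 was lower. Of all probe sets 3.24% were called higher and 2.99% lower. With the block 4 ligands, 3 receptors, 6 modulators, 3 mediators and 3 of 10 targets were higher, where 8.17% of all probe sets were. Lower with the block were 1 receptor, 1 modulator and 1 mediator, where 6.93% of all probe sets were. The median differences of the 5 lists with CNTF lay between -0.16 and 0.20.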

How the data were processed

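RNA of rat spinal cord material was measured on 18 Affymetrix arrays, 6 each with BMP, with CNTF and as controls. The deposited values were linear probe set intensities for 31099 probe sets, with none missing. No source used here gives the steps by which the authors summarised and scaled them. After 2% was trimmed at each end, the mean intensity was 2500.7 to 2500.8 on every array. Probe sets for Affymetrix controls (57) were removed, and gene symbols came from the platform annotation.

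Levels were taken as log2(intensity + 116.655). All 31042 remaining probe sets on 18 arrays entered 1 linear model of group means (limma 3.58.1, R 4.3.3, empirical Bayes with an intensity trend). The p-values are two-sided and were adjusted by Benjamini-Hochberg over all probe sets, called under 0.05; ± after a difference is the moderated SE. A gene was read on its brightest probe set, and its other probe sets are given beside it.

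Deviations from the group means of same-numbered arrays correlated in all 18 pairs (r = 0.12 to 0.49). Each array of the first-named group of a comparison correlated best with its own number in the other group, and the reverse was not checked. The numbers were therefore taken to pair the arrays. Fits with the title number as a replicate block are given beside the results of members and pathway lists whose call or count they change. Other alternatives were the constant divided or multiplied by 4, quantile normalization, a filter on dim probe sets, no trend, fits of the 2 groups compared alone, and leaving out single arrays. Named genes were all members, up to 4 called genes of each pathway list, and the 3 genes most like each called member. The members, lists and settings were chosen with earlier results of these data known. The number of arrays, 6 a group, limits the precision.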

Additional observations from a re-analysis of the deposited data

Results flagged for a closer look

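Of 48 groups of 6 arrays (16 probe sets in 3 groups), 2 held an array whose gap to its nearest neighbour passed Dixon's critical value for 6 values, as a share of the range of the group. Chance alone marks about 1 in 20 groups. On the dim Bmp6 probe set 1378427_at, CNTF array 3 read 8.24 and the next highest CNTF array 7.39 (gap 0.679 of the range). On the dim Bmpr2 probe set 1394667_at, control array 2 read 8.35 and the next highest control 7.42 (gap 0.692 of the range). Both probe sets were below the table median on every array, and neither was called in any comparison.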

How the results depend on the processing

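Acvr1 kept its call in BMP against control on all 3 probe sets in every setting run. With the replicate block, 5176 probe sets were called in BMP against control, 2349 in CNTF against control and 4686 in BMP against CNTF, where 1865, 721 and 1934 were called without it. The 16 probe sets described gave 6, 1 and 4 calls with the block, where 3, 0 and 2 were called without it. In the fit of the BMP and CNTF arrays alone they gave 1 call. When 1 array was left out, their calls were 3 to 5 in BMP against control, the 5 without BMP array 4, and 0 to 2 in BMP against CNTF, the 0 without CNTF array 6. Bmp6 was called in BMP against control when dim probe sets were left out (adjusted p = 0.0403) and in the fit of these 2 groups alone (0.0331). The filter on dim probe sets kept 11 of the 16.

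On the brightest probe sets, the differences that turned sign were all uncalled. Dimmer probe sets of Bmp2, Bmp6 and Bmpr2 also turned sign with 1 array left out, and were uncalled. Bmp6 on 1378427_at, for example, ranged from -0.24 to 0.11 in BMP against control. The values that follow are for the brightest probe sets. Bmp4 in CNTF against control was -0.012 with the larger constant and -0.0042 after quantile normalization, and -0.43 to 0.31 with 1 array left out (-0.43 without control 1). With 1 array left out, Bmpr2 ranged from -0.060 to 0.33 in BMP against control, from -0.054 to 0.35 in CNTF against control and from -0.21 to 0.18 in BMP against CNTF. Within a number, Bmpr2 read above control with both factors under 6 of 6 numbers. The fits with 1 array left out had no block and kept the same-numbered arrays of the other groups. They therefore cannot show whether that paired difference is stable. In the same fits Bmpr1a ranged from -0.11 to 0.049 in CNTF against control and Bmp7 from -0.14 to 0.40 in BMP against CNTF. Signal over background limits Acvrl1, Bmp2, Bmp6 and the dim probe set of Bmpr2.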

Other observations

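Among the 15502 probe sets at or above the table median, 7 had at least 98.2% of their sum of squares on the title number. The bright Bmpr2 probe set was 1 of them, and Xist, the RNA of X chromosome inactivation, was another (98.9% for number and 0.098% for group, number means spanning 2.05 log2). The other 5 carried no single gene symbol. Bmpr2 number means spanned 1.62 log2. What the title numbers stand for is not given in the labels. These probe sets were chosen after their values were seen.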
